A study of Homo sapiens with 9 samples.

Results

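Oxidative phosphorylation genes were followed through a sequential growth factor treatment of HCT116 cells, an established human colorectal carcinoma line. The genes were those that the deposited table assigned to the KEGG oxidative phosphorylation term, together with the protein-coding genes of the mitochondrial DNA. Genes whose names start with ATP6V, subunits of the vacuolar proton pump, were left out (20 of the 127 genes of the term). This gave 107 of 33861 genes, 94 encoded in the nucleus and 13 in the mitochondrial DNA. Total RNA after ribosomal RNA depletion was sequenced in 9 libraries. There were 3 libraries in each of 3 groups. Control cells (NC) were given no growth factor, the activin group was kept in activin A at 100 ng/mL over 5 days, and the activin + HGF group went through the same step and then through 5 more days in hepatocyte growth factor (HGF) at 20 ng/mL. In the deposited table the columns of the activin + HGF libraries carry the name of the cell line alone, without a treatment, and they were assigned to that group by the description labels of the samples. The time for which control cells were cultured is not given in the sources used here, so the time in culture and the treatment cannot be told apart. All libraries came from a single cell line, and nothing in the labels says that replicates were separate cultures, so that p-values measure the spread between these libraries, which may be technical.

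Oxidative phosphorylation takes place in the inner mitochondrial membrane. Complexes I, III and IV pass electrons from NADH to oxygen and pump protons, complex II feeds in electrons from succinate, and the ATP synthase, or complex V, uses the proton gradient to make ATP. Most subunits are encoded in the nucleus and imported, whereas a small set, essential to complexes I, III, IV and V, is encoded in the mitochondrial DNA and transcribed there by a separate RNA polymerase. Nuclear regulators such as NRF1, the GABP proteins and YY1 are known to bind upstream of many nuclear subunit genes. The nuclear genes comprised 38 subunits of complex I (7 core and 31 accessory), 4 of complex II, 10 of complex III, 15 of complex IV and 15 of the ATP synthase. A further 5 were related to complex IV (copper and heme A assembly factors and COX7A2L), and 7 were other enzymes of the term, among them pyrophosphatases and proton pump subunits. The mitochondrial genes were 7 subunits of complex I, MT-CYB of complex III, MT-CO1, MT-CO2 and MT-CO3 of complex IV, and MT-ATP6 and MT-ATP8 of the ATP synthase.

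Since many nuclear members moved together, the sequences before their start sites were read from a RefSeq table (GRCh38.p14) of 300-base windows, 250 bases before to 50 after each start. The table matched 75 of the 94 nuclear members, with 91 windows. The letters GCGCANGCG of the NRF1 motif, on either strand, were present in 26.4% of these windows, compared with 7.52% of all 35116 windows of the table and 11.2% of the windows of tested genes. The ETS letters CCGGAAGT, bound by GABPA, were present in 15.4% of the members' windows (4.14% of all windows and 6.51% of those of tested genes), and the YY1 letters AAGATGGC also in 15.4% (2.89% and 4.23%). At least 1 of the 3 motifs was found in 45.1% of the members' windows, in 13.3% of all windows and in 19.9% of those of tested genes. Among the 28 windows of members that were lower after activin (below), 57.1% held at least 1 motif, compared with 40.3% of 62 windows of members without a call in that comparison. Some genes have several windows. By gene, at least 1 motif was found for 15 of 25 lowered members and for 25 of 49 members without a call. Neither difference was tested. Matches describe letters only and do not show that a factor binds there.

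The sequences of 3 members that were lower after activin and held the NRF1 letters are shown, with the matches in capitals, since they were the members with these letters that fell most. Each is written 5′ to 3′ on the strand of its gene and ends before the gene's first annotated base in GENCODE 29. The ATP5ME stretch is chr4:674339-674526 (minus strand), the NDUFA9 stretch is chr12:4648864-4649094 (plus strand) and the SDHA stretch is chr5:218070-218240 (plus strand).
ATP5ME: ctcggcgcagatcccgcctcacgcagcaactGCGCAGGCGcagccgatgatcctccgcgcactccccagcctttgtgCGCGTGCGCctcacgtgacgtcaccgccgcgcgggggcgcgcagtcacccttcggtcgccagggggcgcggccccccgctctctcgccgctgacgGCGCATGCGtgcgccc
NDUFA9: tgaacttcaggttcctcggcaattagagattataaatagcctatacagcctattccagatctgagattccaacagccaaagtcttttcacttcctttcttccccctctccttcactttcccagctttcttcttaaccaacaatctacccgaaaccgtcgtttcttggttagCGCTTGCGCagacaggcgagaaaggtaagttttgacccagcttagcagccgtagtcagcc
SDHA: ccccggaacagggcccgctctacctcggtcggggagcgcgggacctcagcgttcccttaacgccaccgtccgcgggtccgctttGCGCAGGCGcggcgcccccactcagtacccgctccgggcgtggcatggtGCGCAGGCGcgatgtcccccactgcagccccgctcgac

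The depth was 57453977 to 77016167 counts per library, and 3 counts corresponded to at most 0.0551 counts scaled to library size (CPM, counts per 1e6). All levels below are CPM scaled between libraries with TMM factors, unless FPKM (also scaled to gene length) are named. Epithelial markers were high, with KRT8, KRT18, KRT19 and EPCAM between 61.3 and 438 FPKM, whereas among intestinal markers CDX2 was at 1.57 to 5.41 FPKM and CDX1 and VIL1 stayed at or below 0.14 FPKM. Of the markers of other cell types, PTPRC was at no more than 0.02 FPKM, DCN at no more than 0.01 FPKM, and endothelial markers summed to no more than 0.14 FPKM. The summed fibroblast list was 2.6 to 2.82 FPKM in control, 4.26 to 5.82 FPKM in activin-treated and 2.82 to 3.51 FPKM in activin + HGF-treated cells, and COL1A1 gave most of it (2.22 to 5.8 FPKM). The summed leukocyte list was 0.77 to 1.65 FPKM in control, 5.01 to 9.43 FPKM in activin-treated and 6.06 to 7.72 FPKM in activin + HGF-treated cells, and CD68 gave most of it. The part of these lists in the results was not tested. Activin replicate 2 and activin + HGF replicate 1 stood somewhat apart from the other libraries of their groups, with correlations across genes of 0.97 to 0.98 compared with 0.99 for the remaining pairs. Activin replicate 2 was as close to activin + HGF replicates 2 and 3 (0.9712 and 0.9732) as to activin replicates 1 and 3 (0.9725 and 0.9709). Counts of called members without activin replicate 2 or without activin + HGF replicate 1 are given below.

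Activin treatment was followed by lower mRNA levels of many nuclear oxidative phosphorylation genes, with calls in both directions in complex IV. Of 93 tested nuclear members, 31 fell and 2 rose at an adjusted p under 0.05 (edgeR quasi-likelihood test, Benjamini-Hochberg adjustment over 20988 genes). Across all tested genes, 8.41% fell and 9.58% rose (18.0% in either direction). The median log2 fold change was -0.46 for the nuclear members and 0.02 for all tested genes. In 52 members all activin libraries lay below all control libraries, and in 4 they lay above. The corresponding shares of all tested genes were 21.3% and 20.9%. COX7A1, a muscle form of a complex IV subunit, held too few counts to be tested.

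Without activin replicate 2, 47 nuclear members fell and 1 rose, and without activin + HGF replicate 1, which entered only through the shared estimate of the spread, 35 fell and 2 rose. The count fell to 22 at the least when a single library was left out (activin replicate 1, control replicate 2 or control replicate 3), and 21 of the 31 lowered members passed in every such fit. Over all tested genes, the calls without these 3 libraries were 2604, 2255 and 2021, compared with 3776 in the main fit. Without activin replicate 2 they were 4124.

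**Figure D1:**
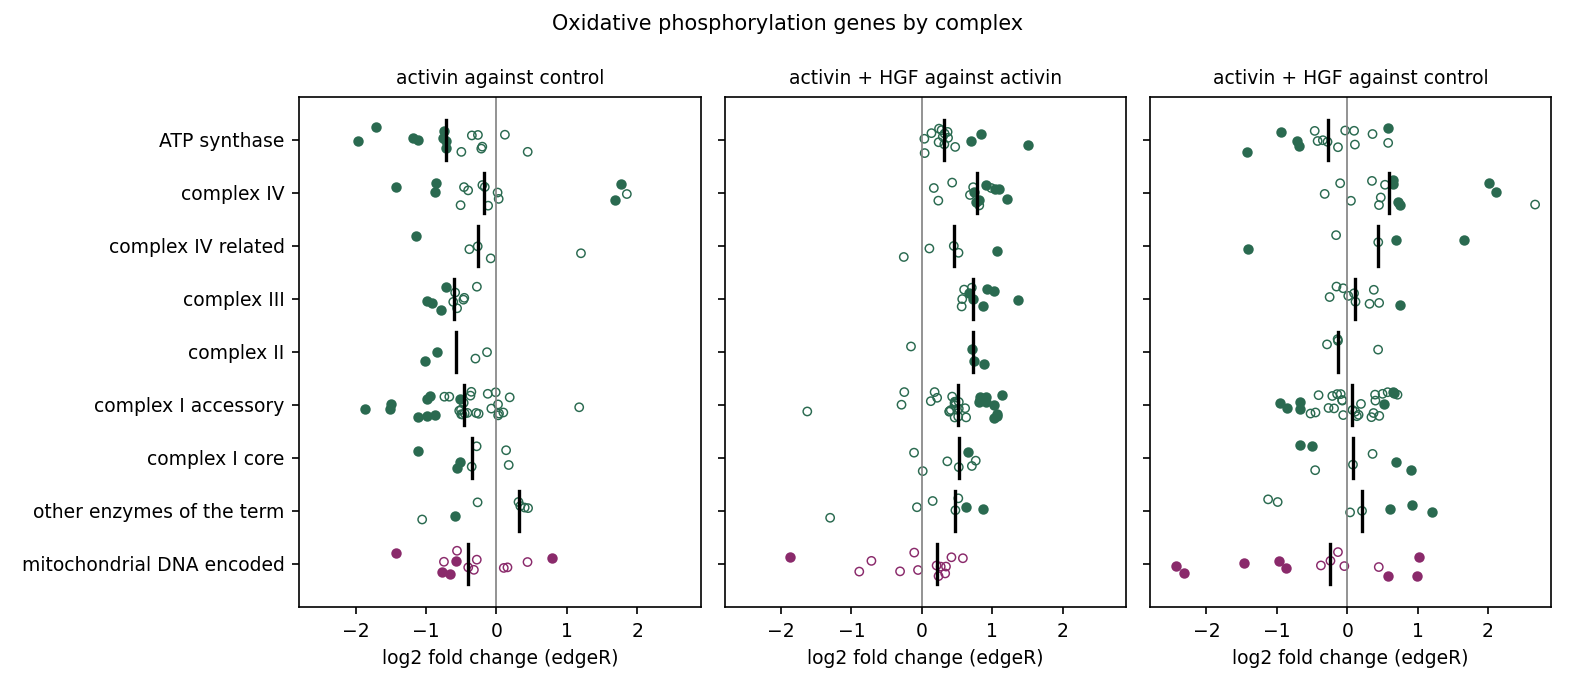
Each point is the edgeR log2 fold change of a member, with nuclear members (green) in rows by complex and mitochondrial ones (purple) in the last row, filled where the adjusted p was under 0.05, and vertical lines at the medians. Nuclear members lay mostly below 0 for activin against control (median -0.46) and mostly above 0 for activin + HGF against activin (median 0.53).

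In the ATP synthase 8 of 15 nuclear members fell after activin, with a median of -0.71. ATP5ME, a small subunit of the membrane part of the enzyme, was at 78.8, 92.9 and 80.1 CPM in control and at 18.7, 26 and 19.9 CPM in activin-treated cells. All activin libraries lay well below all control libraries, and the log2 fold change was -1.96 ± 0.18 (SE, adjusted p = 0.00013, edgeR). ATP5MF, another membrane subunit, was at 85.5, 106 and 90.5 CPM in control and at 21.3, 39.3 and 25.7 CPM after activin (log2 fold change -1.71 ± 0.24). ATP5F1A, the alpha subunit of the catalytic head, is expressed at a much higher level and went from 713, 736 and 673 CPM to 314, 366 and 298 CPM. The groups did not overlap for either gene, and ATP5F1A fell by 1.12 ± 0.15 on the log2 scale (adjusted p = 0.00082, edgeR). ATP5MC1, which is 1 of the genes for the ring subunit that turns with proton flow, fell by 1.18. The other genes for it were at higher levels, with means in control and after activin of 89.6 and 77.2 CPM for ATP5MC2 and 198 and 117 CPM for ATP5MC3. ATP5F1B, the catalytic beta subunit, had 867, 833 and 692 CPM in control and 509, 688 and 498 CPM after activin and did not pass the test.

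In complex I, 12 of 38 nuclear subunits fell and 0 rose (0 rose also at an unadjusted p under 0.05 and in DESeq2). NDUFB10, an accessory subunit of the membrane arm, was at 94.0, 93.7 and 93.5 CPM in control and at 19, 34.8 and 23.3 CPM after activin. The control libraries were nearly equal and all activin libraries were lower, with a log2 fold change of -1.87 ± 0.23 (adjusted p = 0.00052, edgeR). NDUFS5, another accessory subunit, was at 196, 199 and 193 CPM in control and at 63.4, 78.4 and 65.2 CPM after activin. NDUFA9, at the junction of the membrane and matrix arms, was at 64.0, 68.6 and 60.0 CPM in control and at 21.6, 22.3 and 24.4 CPM after activin. Neither gene overlapped between groups, and their log2 fold changes were -1.51 ± 0.17 and -1.49 ± 0.16. Of the 7 nuclear core subunits, which carry the cofactors of electron transfer, 3 fell, among them NDUFS1 and NDUFS3, by 0.56 and 1.11 on the log2 scale. NDUFS1 lost the call in 5 of 9 fits with a library left out (adjusted p up to 0.16, without control replicate 1, edgeR).

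In complex II, the succinate dehydrogenase, 2 of 4 subunits fell. SDHA, the flavoprotein that oxidises succinate, was at 175, 184 and 154 CPM in control and at 74.7, 108 and 71.2 CPM after activin, with no overlap and a log2 fold change of -1.01 ± 0.19. SDHB, the iron-sulfur subunit, fell by 0.84 ± 0.18. In complex III, 4 of 10 members fell, and all 10 estimates were below 0 (median -0.60). They included UQCRFS1, the Rieske iron-sulfur protein, which fell by 0.92 ± 0.18, and UQCRHL, a near copy of UQCRH whose counts may be shared with it.

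Complex IV was mixed, with 3 lower and 2 higher of 14 tested members and a median of -0.18. COX6B1, the general form of a subunit at the dimer interface, was at 99.7, 121 and 109 CPM in control and at 28.4, 64.7 and 30.2 CPM after activin. COX6B2, the form of the same subunit known from testis, was at 1.65, 1.99 and 1.79 CPM in control and at 4.45, 8.31 and 4.78 CPM after activin. The groups separated in opposite directions, with log2 fold changes of -1.42 ± 0.29 for COX6B1 and 1.69 ± 0.30 for COX6B2, although COX6B2 stayed at a low level. NDUFA4L2, a relative of the complex IV subunit NDUFA4, also rose (1.77 ± 0.53), from 0.196, 0.907 and 0.783 CPM to 2.32, 2.66 and 1.50 CPM, and lost the call in 7 of 9 fits with a library left out (adjusted p up to 0.096, without activin replicate 2, edgeR) and in 3 of 12 other settings. COX5A and COX4I1, general subunits of complex IV, fell by 0.86 and 0.87. COX15, which makes the heme A of complex IV, was at 141, 133 and 140 CPM in control and at 67.8, 56.9 and 62.6 CPM after activin, and fell by 1.15 ± 0.16.

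**Figure D2:**
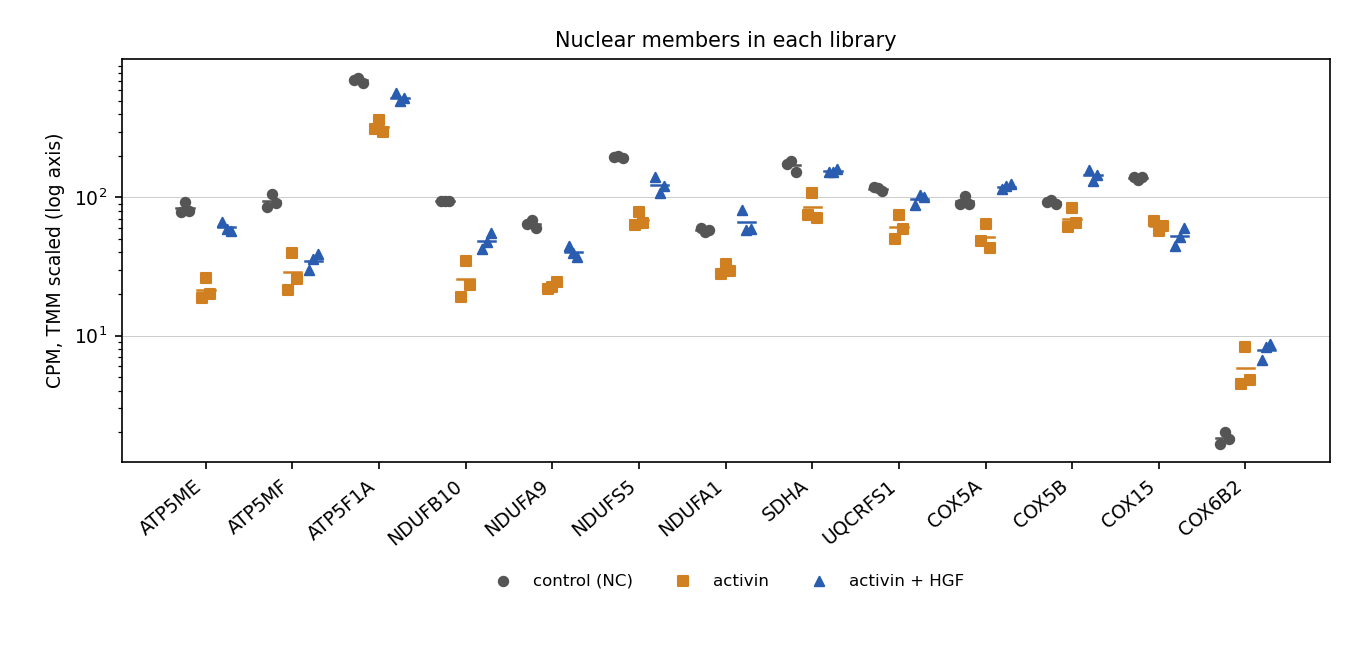
CPM of named nuclear members in each of the 9 libraries, on a log axis, with points for libraries and short lines for group means. ATP5ME was at 78.8 to 92.9 CPM in control, 18.7 to 26 CPM after activin and 57.3 to 66.5 CPM after activin + HGF.

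The HGF step after activin was followed by higher levels of nuclear members. This step also added 5 days in culture after the activin step, and no group spent those days without HGF. The effect of HGF and that of the added time therefore cannot be told apart in this comparison. Relative to activin alone, 34 of 93 rose and 0 fell (edgeR), against 7.41% of all tested genes that rose and 5.45% that fell (12.9% in either direction). At an unadjusted p under 0.05, 55 were higher and 0 lower, and the share of all tested genes at that threshold is not given here. DESeq2 called 41 higher and 0 lower, and over all 20988 genes 2361 higher and 2149 lower. Limma called 19 higher and 2 lower on log2(FPKM + 1) and 18 higher and 2 lower on log2(FPKM + 0.1). Over all 15162 genes in limma, 853 were higher and 2502 lower, and 804 higher and 2362 lower, respectively. The median edgeR log2 fold change of the nuclear members was 0.53 (-0.04 for all tested genes). In 54 members all activin + HGF libraries lay above all activin libraries and in 0 below, compared with 17.2% and 15.6% of all tested genes. The number of calls depended on the libraries. It was 4 without activin replicate 1, 10 without activin replicate 3 and 53 without activin replicate 2. It was 21 without control replicate 1, control replicate 2 or activin + HGF replicate 3, and 26 without activin + HGF replicate 1. Calls over all tested genes moved as well, from 2698 to 686, 1049 and 4533 without activin replicates 1, 3 and 2. Of these, 281, 459 and 2646 were higher. With scaling by library totals, 16 nuclear members rose and 0 fell, the median of the nuclear members was 0.20 and that of all tested genes was -0.38. The 4 members that passed with each library left out were ATP5ME, COX5A, COX5B and NDUFA1.

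ATP5ME returned to 66.5, 59.1 and 57.3 CPM, all above the activin libraries and all below the control libraries. Its log2 fold change against activin was 1.50 ± 0.18 (adjusted p = 0.0026), and against control it was -0.46 ± 0.18 (adjusted p = 0.070, edgeR). COX5A, at 48.0, 64.6 and 43.2 CPM after activin, was at 114, 120 and 125 CPM after activin + HGF, above all control libraries (89.9, 103 and 89.3 CPM). It rose by 1.21 ± 0.18 on the log2 scale against activin, whereas its difference from control (0.35 ± 0.18) did not pass the test (adjusted p = 0.16, edgeR). COX5B, a zinc-binding complex IV subunit, was at 60.9, 84.5 and 64.8 CPM after activin and at 158, 131 and 145 CPM after activin + HGF (1.05 ± 0.17). NDUFA1, needed to build the membrane arm of complex I, was at 28.1, 32.8 and 29.4 CPM and then at 81.8, 58.2 and 59.5 CPM (1.14 ± 0.18). In both, no activin + HGF library overlapped with activin.

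Complex III rose in 6 of 10 members (median 0.72) and complex IV in 7 of 14 (median 0.79). Complex II rose in 3 of 4 members, and SDHA was at 153, 152 and 162 CPM, with 1 library inside the control range and the others just below it (log2 fold change against control -0.14 ± 0.18, adjusted p = 0.62, edgeR). In complex I, 11 of 31 accessory subunits and 1 of 7 core subunits, NDUFS3, rose, and the medians were 0.52 and 0.53. At an unadjusted p under 0.05, 19 accessory and 4 core subunits were higher. The ATP synthase had 3 calls among 15 members (ATP5ME, ATP5F1E and ATP5F1A) and a median of 0.32. Whether complexes differed from each other was not tested.

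Against control, activin + HGF-treated cells had 18 nuclear members higher and 11 lower, where 16.4% of all tested genes were higher and 15.0% lower (31.4% in either direction), and the median was 0.10 (-0.03 for all tested genes). In 32 members all activin + HGF libraries lay above control and in 23 below, compared with 25.7% and 28.1% of all tested genes. The split depended on the scaling: with library totals 5 were higher and 21 lower, with a median of -0.17 (all tested genes -0.30), and with limma on log2(FPKM + 1) 7 were higher and 25 lower. Over all tested genes, 2447 were higher and 4290 lower with library totals, and 2246 higher and 4364 lower with that limma fit. The 29 calls fell to 12 without control replicate 3, 14 without control replicate 1, 17 without activin + HGF replicate 3 and 19 without control replicate 2 or activin + HGF replicate 1. Over all tested genes, the 6587 calls fell to 4260, 4373, 5629, 4767 and 5670 in these fits, in the same order. Without each library in turn, 9 of the 11 lower members and 3 of the 18 higher members (COX6B2, NDUFA4L2 and LHPP, a phosphatase of the term) passed.

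The lower members came from the ATP synthase (4), complex I (6) and COX15. ATP5MF was at 30.0, 36.0 and 38.8 CPM after activin + HGF, far below control (log2 fold change -1.43 ± 0.24, adjusted p = 0.0015, edgeR). COX15 was at 44.8, 51.6 and 60.4 CPM, also below every control library (-1.40 ± 0.16). NDUFB10, at 42.2, 47.4 and 55.0 CPM, lay between activin and control (-0.96 ± 0.22). Among the higher members, complex IV had 6 of 14 and no lower one (0 lower also at an unadjusted p under 0.05 and in DESeq2). COX6B2 was at 6.63, 8.32 and 8.69 CPM (2.12 ± 0.30) and NDUFA4L2 at 2.53, 1.83 and 3.26 CPM (2.01 ± 0.53), both above all control libraries. COX7A2L, a factor that joins complexes III and IV into supercomplexes, varied widely, at 25.2, 45.6 and 24.3 CPM in control, 37.8, 83.3 and 97.4 CPM after activin and 163, 53.2 and 82.8 CPM after activin + HGF. It rose by 1.66 ± 0.46 against control and lost the call in 3 settings, among them without control replicate 1 (adjusted p = 0.081, edgeR).

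The 13 mitochondrial genes are transcribed as long precursors from both strands and cut at the tRNAs between them, so that neighbouring genes share a transcript. All but MT-ND6 are read from the same strand. The use of strand in the counting is not given in the sources used here, and without it reads from a gene and from its antisense strand cannot be told apart. Some overlap in sequence, and MT-ATP8 and MT-ATP6 share 46 bases (chrM:8527-8572, plus strand, GENCODE 29, whose coordinates equal those of the table for all 37 mitochondrial genes), shown here in capitals because reads there belong to both.
MT-ATP8 and MT-ATP6: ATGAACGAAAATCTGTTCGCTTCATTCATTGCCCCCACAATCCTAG

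Mitochondrial genes moved in both directions. After activin 4 of 13 fell and 1 rose (38.5% called, compared with 18.0% of all tested genes), with a median of -0.40. MT-ND2, a membrane subunit of complex I, was at 12910, 15618 and 15469 CPM in control and at 4888, 6182 and 5272 CPM after activin. All activin libraries were lower, with a log2 fold change of -1.43 ± 0.31 (adjusted p = 0.011, edgeR). MT-CO2, a catalytic subunit of complex IV, went from 19764, 22693 and 22354 CPM to 10940, 14862 and 12250 CPM (-0.77 ± 0.16). MT-CYB, the cytochrome of complex III, and MT-ND4 of complex I fell by 0.66 and 0.57. They lost the call in 8 and 5 settings, among them fits with a library left out (adjusted p = 0.14 without activin replicate 1 and 0.096 without control replicate 2, edgeR). MT-ATP8, at 3706, 4505 and 4574 CPM in control and 6464, 9347 and 6211 CPM after activin, rose by 0.78 ± 0.21. It lost the call in 4 settings, among them without control replicate 1 (adjusted p = 0.074, edgeR). The 5 calls became 2 without control replicate 3 and 3 without control replicate 1, control replicate 2, activin replicate 1 or activin replicate 3.

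After activin + HGF, relative to activin, the only call among the 13 was MT-ATP6 (1 lower, 0 higher). This was 7.69%, compared with 12.9% of all tested genes called in either direction. At an unadjusted p under 0.05, 3 were higher and 3 lower, and DESeq2 called 2 higher and 2 lower. MT-ATP6, the proton channel subunit of the ATP synthase, was at 18669, 13163 and 20791 CPM in control, 13138, 19739 and 2831 CPM after activin and 2927, 3270 and 3541 CPM after activin + HGF. Activin replicate 3 thus lay with the activin + HGF libraries and below them, and the groups overlapped. The log2 fold change was -1.87 ± 0.52 (adjusted p = 0.040, edgeR), and it lost the call in 8 of 9 fits with a library left out (adjusted p up to 0.11, without activin + HGF replicate 1). Without activin replicate 2, 4 mitochondrial genes were higher and 0 lower, and with library totals 0 were higher and 4 lower.

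A nearly identical copy of MT-ATP6 on chromosome 1, MTATP6P1, matched it at 98.5% of 681 aligned bases, so that reads could be assigned to either. The copy took 14.3, 22.4 and 15.3% of the counts of both in control, 12.4, 12.3 and 40.5% after activin and 41.3, 42.1 and 42.2% after activin + HGF. The share was high in the same 4 libraries in which MT-ATP6 was low. The level of the copy itself was 3116 to 3795 CPM in control, 1867 to 2761 CPM after activin and 2060 to 2589 CPM after activin + HGF. The copy was thus also lower than in control, by 0.70 after activin (adjusted p = 0.026) and 0.60 after activin + HGF (adjusted p = 0.032, edgeR) on the log2 scale. With the counts of the copies added, MT-ATP6 no longer passed against activin (-1.33, adjusted p = 0.063) but did against control (-1.92, adjusted p = 0.0074, edgeR). The part of read assignment in the MT-ATP6 values was not tested.

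**Figure D3:**
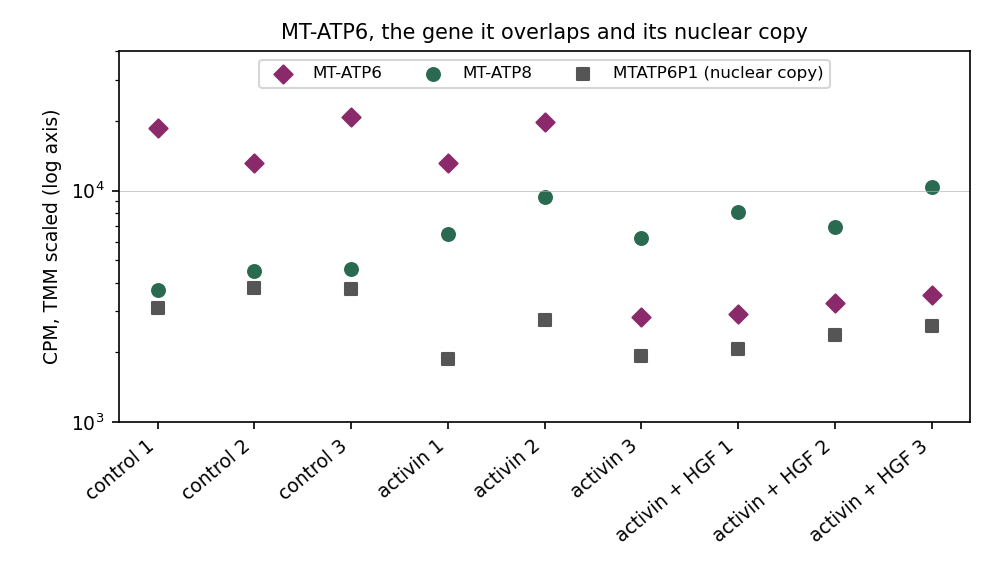
CPM of MT-ATP6, its chromosome 1 copy MTATP6P1 and MT-ATP8 in each library, on a log axis. MT-ATP6 was at 2831 to 3541 CPM in activin replicate 3 and the 3 activin + HGF libraries and at 13138 to 20791 CPM in the other 5.

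Against control, activin + HGF-treated cells had 3 mitochondrial genes higher and 5 lower, and these 8 passed with each library left out. They were 61.5% of the 13, compared with 31.4% of all tested genes called in either direction. MT-ND2 was at 1419, 3391 and 4020 CPM (-2.32 ± 0.32) and MT-ND1, its neighbour, at 2116, 4892 and 5662 CPM compared with 10295, 12690 and 11877 CPM in control (-1.46 ± 0.33). All activin + HGF libraries were below control, and replicate 1 was lowest for both. MT-ATP6 fell by 2.43, MT-CYB by 0.97 and MT-CO2 by 0.88 on the log2 scale. MT-ND6, the only member read from the other strand, was at 1676, 2462 and 2066 CPM in control, 2369, 3341 and 2719 CPM after activin and 4506, 3793 and 4331 CPM after activin + HGF (1.03 ± 0.19 against control). MT-ATP8 rose by 0.99 ± 0.21. MT-CO1, the subunit of complex IV that reduces oxygen, was at 20553, 24339 and 22421 CPM in control and at 34716, 32984 and 32803 CPM after activin + HGF, with no overlap (0.58 ± 0.13, adjusted p = 0.0088, edgeR), but not called with no low count filter.

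**Figure D4:**
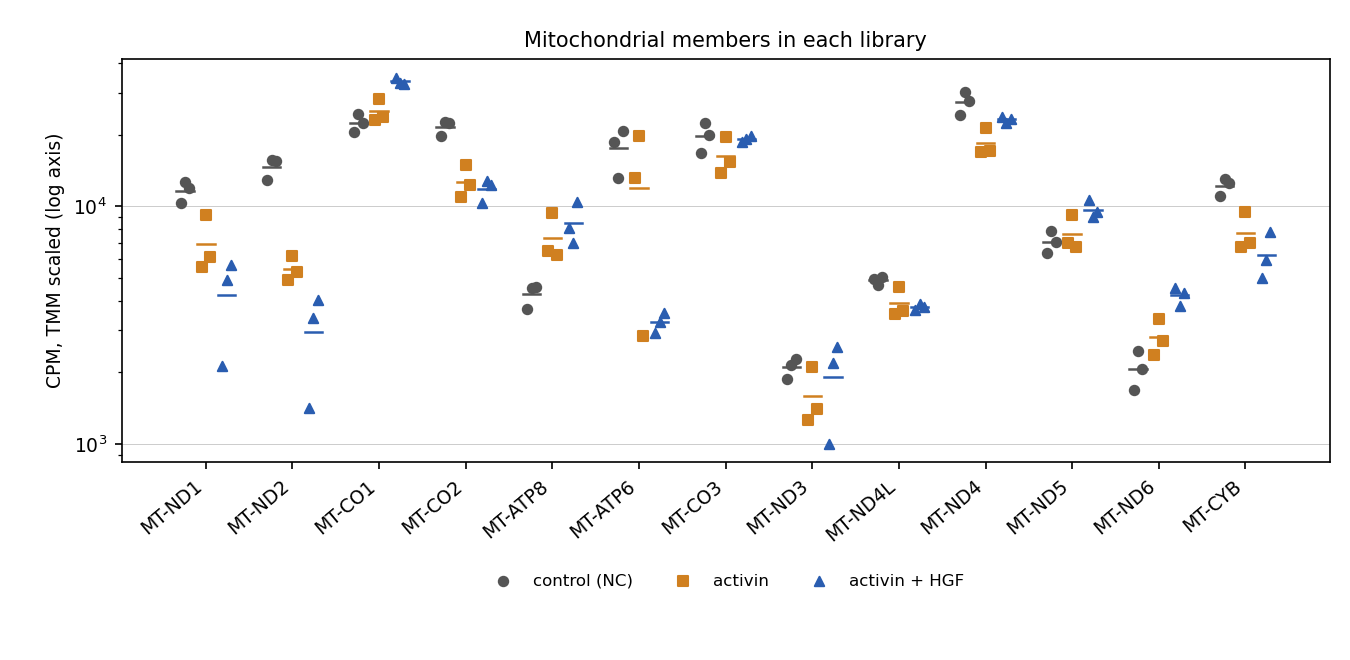
CPM of the 13 mitochondrial genes in each of the 9 libraries, on a log axis, with short lines for group means. MT-ND2 went from 12910 to 15618 CPM in control to 1419 to 4020 CPM after activin + HGF, while MT-CO1 went from 20553 to 24339 CPM to 32803 to 34716 CPM.

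The ribosomal RNAs of the mitochondrial DNA lie upstream of MT-ND1. MT-RNR2 was at 12529, 13807 and 14099 CPM in control, 15256, 13631 and 17355 CPM after activin and 57308, 32205 and 30574 CPM after activin + HGF (1.57 ± 0.23 against control and 1.38 ± 0.23 against activin, edgeR). MT-RNR1 was at 3136, 3199 and 3448 CPM in control, 981, 1291 and 1132 CPM after activin and 8857, 3478 and 2960 CPM after activin + HGF. It fell by 1.52 ± 0.35 on the log2 scale after activin (adjusted p = 0.014, but 0.061 without activin replicate 1) and rose by 2.17 ± 0.36 between activin and activin + HGF (adjusted p = 0.0071, edgeR). Its activin + HGF libraries overlapped with control, and it was not called in that comparison. Both ribosomal RNAs together were 1.67 to 1.83% of counts in control, 1.47 to 2.15% after activin and 3.01 to 5.18% after activin + HGF. Ribosomal RNA had been depleted during library preparation, so these levels are what remained after that step.

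Nuclear and mitochondrial genes were then compared within libraries. The mitochondrial minus nuclear median log2 fold change was 0.06 after activin, -0.32 for activin + HGF against activin and -0.34 for activin + HGF against control. The pooled SD of this difference between replicates was 0.16. By library, relative to the control mean, the difference was -0.12, 0.04 and 0.06 in control, 0.14, 0.21 and -0.14 after activin and -0.61, -0.24 and -0.37 after activin + HGF. All activin + HGF libraries were below all others, and activin and control overlapped. No p is given, since genes share libraries.

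Mitochondrial genes made up 94.7 to 95.4% of the members' counts in control, 95.2 to 95.8% after activin and 93.0 to 94.2% after activin + HGF. Of all counts they were 16.3 to 18.2%, 12.8 to 15.5% and 9.93 to 12.5%, and nuclear members were 0.874 to 0.924%, 0.599 to 0.687% and 0.749 to 0.790%. Both shares of all counts were thus highest in control, and the nuclear share was lowest after activin. In bulk RNA, fewer mitochondrial genomes, less transcript per genome and less RNA per cell cannot be told apart.

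**Figure D5:**
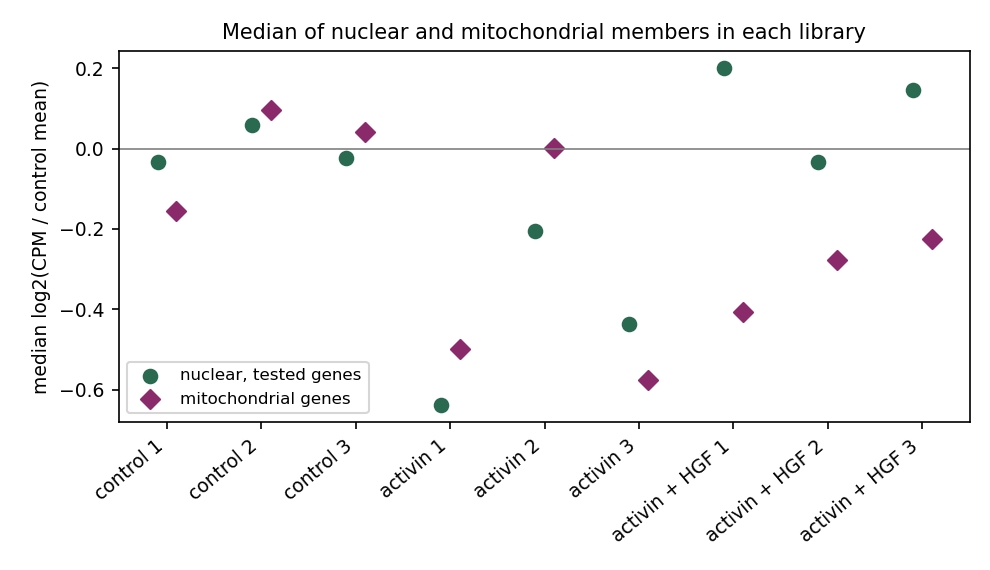
Median log2 level of nuclear and mitochondrial members in each library, relative to the control mean. Nuclear medians were -0.64 to -0.21 after activin and -0.03 to 0.20 after activin + HGF, while mitochondrial medians were -0.41 to -0.23 after activin + HGF.

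Genes that act on mitochondrial DNA and RNA, or that supply electrons, were followed as related lists, whose counts stand beside the shares of all tested genes called in either direction given above (18.0% after activin, 12.9% for activin + HGF against activin and 31.4% against control). By direction, 8.41% fell and 9.58% rose after activin, and 7.41% rose and 5.45% fell for activin + HGF against activin. Against control, 16.4% were higher and 15.0% lower after activin + HGF. Of 21 genes of mitochondrial RNA processing and stability, 11 fell after activin and 0 rose (0 also at an unadjusted p under 0.05 and in DESeq2), with a median of -0.71. LRPPRC, which stabilises mitochondrial mRNAs, was at 321, 289 and 294 CPM in control, 176, 101 and 180 CPM after activin and 169, 163 and 156 CPM after activin + HGF. SLIRP, its partner, was at 33.6, 31.9 and 30.0 CPM in control, 16.4, 17.5 and 16.1 CPM after activin and 16.2, 14.9 and 19.8 CPM after activin + HGF. Both were below control in all treated libraries, with log2 fold changes after activin of -0.98 ± 0.21 and -0.93 ± 0.17. No gene of this list was called for activin + HGF against activin (0 in edgeR and DESeq2, 1 higher and 0 lower at an unadjusted p under 0.05), and 11 were lower and 0 higher against control (0 higher also at an unadjusted p under 0.05 and in DESeq2).

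Of 17 genes of mitochondrial DNA replication and transcription, 3 fell after activin (17.6%). Of all tested genes, 8.41% fell and 18.0% were called in either direction. Among the 3 were TFAM, the packaging and transcription factor (-0.79 ± 0.20), and TFB2M, an initiation factor (-0.93 ± 0.22). Each lost this call in 4 of 9 fits with a library left out (adjusted p up to 0.11 for TFAM, without control replicate 1, and 0.075 for TFB2M, without activin replicate 1, edgeR). POLRMT, the mitochondrial RNA polymerase, was at 96.6, 111 and 98.5 CPM in control, 97.2, 148 and 90.5 CPM after activin and 188, 212 and 233 CPM after activin + HGF. It was higher in all activin + HGF libraries, with log2 fold changes of 0.92 ± 0.21 against activin and 1.05 ± 0.21 against control. The call against activin was lost in 3 of 9 fits with a library left out (adjusted p up to 0.092, without activin replicate 1, edgeR). Against activin 4 of the list were higher (23.5%), and against control 3 were higher and 6 lower (52.9%).

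Of 14 tested regulators, 1 rose and 3 fell after activin, 1 rose and 1 fell for activin + HGF against activin, and 1 was higher and 2 lower against control. ESRRA, a nuclear receptor that acts on respiratory genes, was at 36.5, 41.8 and 41.9 CPM in control, 63.7, 88.5 and 56.8 CPM after activin and 110, 92.4 and 112 CPM after activin + HGF. It rose by 0.80 ± 0.19 after activin and by 1.39 ± 0.20 after activin + HGF, both against control. NRF1 was at 28.9, 31.4 and 24.1 CPM in control and 27.4, 29.2 and 23.9 CPM after activin and passed no test, nor did GABPA. GABPB2, which encodes a partner of GABPA, was at 11.4, 12.1 and 12.1 CPM in control, 11.9, 11.5 and 11.7 CPM after activin and 3.20, 4.46 and 3.74 CPM after activin + HGF. After activin + HGF it fell by 1.62 ± 0.20 on the log2 scale against activin (adjusted p = 0.0030) and by 1.64 ± 0.20 against control (adjusted p = 0.00030, edgeR). CREB1, a transcription factor, fell by 1.26 ± 0.39 after activin (adjusted p = 0.047, edgeR) and lost the call in 6 of 9 fits with a library left out. PPARGC1A, a coactivator of these factors, held 0 counts in all control and activin libraries, which allows up to 0.0490 CPM in any of them.

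Of 18 genes of the TCA cycle and the pyruvate dehydrogenase, 8 fell after activin (44.4%), with IDH3B at -1.34 ± 0.16 and FH at -1.13 ± 0.16. With activin + HGF, 3 rose against activin (16.7%), and against control 7 were lower and 1 was higher (44.4%), with DLAT at -1.27 ± 0.28. For complex I assembly factors, 3 of 16 fell after activin (18.8%), and 5 were lower and 0 higher against control after activin + HGF (31.2%). Of all tested genes, 8.41% fell after activin and 15.0% were lower against control, while 18.0% and 31.4% were called in either direction. Among the assembly factors of complex I, 2 were higher against control at an unadjusted p under 0.05, and 1 in DESeq2. ACAD9 was at -1.50 ± 0.21 against control. For assembly factors of complexes II to V, 8 of 32 rose and 1 fell (28.1%) between activin and activin + HGF, with COX14 at 1.68 ± 0.22, and 9 were higher and 6 lower against control (46.9%).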

How the data were processed

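Total RNA of 9 HCT116 libraries was sequenced after ribosomal RNA depletion. The submitters' processing notes name cutadapt 1.9, HISAT2 2.0.4 and StringTie 1.3.4d. The genome build, the counting program and the use of strand are not given in the sources used here. The authors deposited raw read counts per gene, and beside them FPKM, in which the authors scaled each gene by its length and by the size of the library. The members and gene lists were chosen with earlier results of these data known.

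The deposited counts were tested with edgeR 4.0.16 in R 4.3.3 (filterByExpr, TMM scaling, glmQLFit and glmQLFTest) on all 9 libraries with group means and no block. Adjustment (Benjamini-Hochberg) ran over all 20988 tested genes, with 0.05 as the threshold for a call. The SE is the absolute log2 fold change divided by the square root of F. On simulated data for activin against control (20988 genes), 10% of genes changed by a log2 fold change of 1 and 77% of those changed by 2 were called, and 6.45% of calls were unchanged genes. Depth was 57453977 to 77016167 counts. The alternatives were other scalings, filters and thresholds, DESeq2 1.42.0, limma 3.58.1 on log2(FPKM + 1) and log2(FPKM + 0.1), only the groups compared, a replicate block, each library left out and, chosen after seeing the data, nuclear copies added to mitochondrial genes. Tables and plots were made with pandas 2.3.3, matplotlib 3.10.9 and numpy 2.4.6 under Python 3.11.15.

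Named genes were all mitochondrial members, the general subunits and isoform pairs listed, up to 6 called nuclear members with the largest change in each direction per comparison, and in related lists the 2 largest called in each direction plus fixed regulators. Other called members named here, such as ATP5F1E, were chosen after their values were seen. Some genes that meet the rule are not reported here. Cell type markers, sequences and motifs are described beside the results.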

Additional observations from a re-analysis of the deposited data

How the results depend on the processing

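For activin against control, the 33 nuclear calls were 14 when an absolute log2 fold change of 1 or more was also required, 20 at an adjusted p under 0.01 and 22 to 48 with a library left out, and the 5 mitochondrial calls were 1, 1 and 2 to 6, and 2 with no low count filter. For activin + HGF against activin, the 34 nuclear calls were 12 and 6 under these thresholds, 16 with library totals, 21 and 20 with limma on log2(FPKM + 1) and log2(FPKM + 0.1), 5 with only the 2 groups compared and 4 to 53 with a library left out. The 1 mitochondrial call was 0 at an adjusted p under 0.01, with only the 2 groups compared, with the replicate block and with the nuclear copies added, 4 with library totals or DESeq2, 6 with either limma fit and 0 to 4 with a library left out. The mitochondrial minus nuclear median of -0.32 was -0.58 to -0.26 with a library left out (-0.58 without activin + HGF replicate 3). For activin + HGF against control, the 29 nuclear calls were 6 and 10 under these thresholds and 12 to 43 with a library left out, and the 8 mitochondrial calls were 4 under the fold change threshold. The mitochondrial share of the members, taken on FPKM, was 98, 98.1 and 98.3% in control, 98.6, 98.6 and 98.4% after activin and 97.3, 97.8 and 97.9% after activin + HGF. Calls over all tested genes also moved with a library left out. They were 2021 to 4729 after activin, compared with 3776 in the main fit. For activin + HGF against activin they were 686 to 4533, compared with 2698, and against control 4260 to 7798, compared with 6587. With only the 2 groups compared, 714 of 19594 genes were called for activin + HGF against activin. The causes were not tested.

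The replicate block gave 29, 32 and 24 nuclear calls and 5, 0 and 8 mitochondrial calls in the 3 comparisons. Same-numbered libraries had deviations that correlated between -0.12 and 0.24, so that the numbers were not taken to pair the libraries. Of 138 called values of named genes, 0 changed sign under any alternative, and the call was lost in 463 of 2880 refits. Among the 138 values of named genes that were not called, the sign changed in 198 refits. The number of libraries, 3 per group, limits precision more than depth does.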

Other observations

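The sums of the tRNAs of the mitochondrial DNA, which were chosen after their values were seen, differed by the annotated strand, but single tRNAs did not all follow. The use of strand in the counting is not given, so that reads cannot be credited to a strand. Reads of cut tRNAs and of uncut precursors cannot be told apart either. The 14 tRNAs of the plus strand summed to 192 to 219 CPM in control, 123 to 208 CPM after activin and 36.0 to 96.3 CPM after activin + HGF. The 8 tRNAs of the minus strand, the strand of MT-ND6, summed to 514 to 636 CPM, 1107 to 1834 CPM and 1445 to 1947 CPM. MT-TL1 gave much of the plus-strand sums (a mean of 106 CPM in control and 45.8 CPM after activin + HGF), and MT-TN, MT-TC, MT-TY and MT-TA gave most of the minus-strand sums. The plus-strand sums were lower in all activin + HGF libraries than in any other library, and the minus-strand sums were higher in all treated libraries than in control. After activin 4 plus-strand tRNAs fell and 1 rose, and 2 minus-strand tRNAs fell and 4 rose, where 18.0% of all tested genes were called. The minus-strand tRNAs that fell were MT-TQ (log2 fold change -1.13) and MT-TE (-0.85), and the plus-strand tRNA that rose was MT-TR (1.61). Against control, activin + HGF-treated cells had 11 plus-strand tRNAs lower and 0 higher (0 higher also at an unadjusted p under 0.05 and in DESeq2), and 5 minus-strand tRNAs higher and 1 lower (edgeR, adjusted p under 0.05), where 31.4% of all tested genes were called.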
